A study of Mus musculus with 84 samples.

Results

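The genes described here are the nuclear genes for subunits of mouse oxidative phosphorylation, followed across 84 libraries of ventrolateral striatum. Members were chosen by gene symbol alone: Ndufa, Ndufb, Ndufc, Ndufs or Ndufv with a digit, Sdha to Sdhd, Uqcr, Cox4 to Cox8 and Atp5. Of 94 matching symbols, 6 named pseudogenes and 6 had a total count below 840, which left 82 members among 43629 genes in the deposited table. They comprised 35 genes of complex I, 4 of complex II, 8 of complex III, 18 of complex IV and 17 of complex V, with Ndufa4 and its paralogue Ndufa4l2 placed in complex IV. Atp5s, coupling factor B, is not itself a subunit but matched the symbol rule and is counted in complex V. Just above the minimum lay Cox7b2 with a total count of 1101 and Cox7a1 with 2436, and just below it lay Cox8b with 448 and Ndufb4c with 218. All 82 members were among the 17071 genes tested.

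The mice were naive adults of the SOT and NOT lines, bred for both ethanol preference and withdrawal and taken at selection generation 4 (S4 in the labels). By label, 21 females and 23 males were High Drinker (n = 44), and 18 females and 22 males were Low Drinker (n = 40). The labels do not tie either group to SOT or NOT. No animal was treated, and families and litters are not given in the labels, so p-values measure the spread between these animals. A difference between the lines and relatedness within each line cannot be told apart.

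Oxidative phosphorylation takes place in the inner mitochondrial membrane. Complexes I and II pass electrons from NADH and succinate to ubiquinone, complex III passes them to cytochrome c, and complex IV passes them to oxygen. Complexes I, III and IV pump protons, and complex V, the ATP synthase, uses the proton gradient to make ATP. All complexes except complex II also contain subunits encoded by mitochondrial DNA, and the 37 mitochondrial genes in the table had a total count of 0, so only the nuclear side could be followed. Neurons of the striatum rely on this pathway for the ATP that restores ion gradients after firing.

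Library totals lay between 22190363 and 41300401 counts. The ribosomal RNA gene Gm42418 held 10.2% of the reads in High Drinker 11. The numbers that end the sample titles run in 3 sets of 48, 30 and 6 libraries, with 30 High and 18 Low Drinker animals in set 1, 11 and 19 in set 2 and 3 of each in set 3. The set was a term in the models unless stated, and that it is a batch is an inference from the numbering. In 5 libraries (High Drinker 17 and Low Drinker 8, 32, 33 and 34) expression stood apart in earlier results of these data. All 19 markers of medium spiny neurons, the main neuron of the striatum, were detected, with a summed level of 1873 to 22193 CPM in High Drinker and 1536 to 18211 CPM in Low Drinker animals. CPM is a read count divided by the TMM-normalized library size, except for the marker levels in this paragraph, which were divided by the plain library total. The 9 markers of cortical glutamatergic neurons were present too, at 172 to 2536 CPM and 432 to 3101 CPM. Among 9 muscle markers, 2 had medians below 0.1 CPM, the defining genes Ckm and Mb. The summed level of all 9 was 16.4 to 32.3 CPM in High and 17.8 to 42.01 CPM in Low Drinker animals. Among 6 markers of choroid plexus and ependyma, 1 had a median below 0.1 CPM, Ttr. Their summed level was 5.69 to 152 CPM in High and 3.51 to 231 CPM in Low Drinker animals. The summed level of this list therefore varied widely between libraries. With Ttr below 0.1 CPM at the median, it does not show that these cells were present in every library.

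Promoters of 2 members that were lower in High Drinker animals are printed to show the sequence just upstream of the genes concerned: Cox5a, in a chromosome 9 region rich in line differences, and Ndufa8, the called member outside such regions with the smallest adjusted p. Both run 5′ to 3′ on the gene's strand from RefSeq (GRCm38.p6). Cox5a lies on the plus strand, chr9:57520982-57521231, and Ndufa8 on the minus strand, chr2:36049407-36049588. Capitals mark the Sp1 letters GGGCGG or their reverse complement.
Cox5a: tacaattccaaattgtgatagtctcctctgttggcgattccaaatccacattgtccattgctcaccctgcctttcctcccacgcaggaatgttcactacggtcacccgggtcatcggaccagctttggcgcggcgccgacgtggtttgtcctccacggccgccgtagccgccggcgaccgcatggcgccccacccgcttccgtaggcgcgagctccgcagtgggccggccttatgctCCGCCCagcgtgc
Ndufa8: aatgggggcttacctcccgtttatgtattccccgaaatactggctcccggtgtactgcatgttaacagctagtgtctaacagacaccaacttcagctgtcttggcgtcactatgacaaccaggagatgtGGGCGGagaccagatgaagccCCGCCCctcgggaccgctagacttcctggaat
The RefSeq start of Ndufa8 lies 68 bases inside the deposited gene, and those bases are not printed. They hold the NRF1 core letters GCATGCG on both strands, in overlapping positions.

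Promoters were found for 67 of the 82 members, and the 250 bases before the start were searched on both strands for letters bound by factors known from respiratory chain genes. NRF1 core letters (GCATGCG) stood in 9 member promoters (13.4%), against 3.43% of 27025 genes and 4.24% of 17492 protein-coding genes. ETS core letters (CCGGAAG), the site type of GABP, stood in 12 (17.9%), against 7.83% and 10.2%. YY1 letters (AAGATGG) stood in 1 (1.49%), against 5.18% and 4.77%, and Sp1 letters (GGGCGG) in 25 (37.3%), against 35.4% and 45.8%. NRF1 core letters were found in 4 of 15 complex V promoters and 3 of 31 complex I promoters. A match of letters is a description of the window and not a mapped binding site.

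Levels of the members were compared per length, as CPM per kilobase of gene length. The length is the one deposited for each gene, and whether it matches the transcripts expressed here was not tested. The highest was Cox8a, a small membrane subunit of cytochrome c oxidase, at 480 ± 73.5 CPM per kilobase (SD, n = 84). Ndufa4, first described in complex I and later found with complex IV, followed at 439 CPM per kilobase. The catalytic subunits of the ATP synthase, Atp5b and Atp5a1, were close to each other at 305 and 301 CPM per kilobase. The highest members of the other complexes were Ndufb9 in complex I (217), Uqcr11 in complex III (144) and Sdha, the flavoprotein of succinate dehydrogenase, in complex II (109). Median levels by complex were 62.7 CPM per kilobase for complex I, 62.1 for complex II, 85.4 for complex III, 81.2 for complex IV and 78.9 for complex V. The lowest member of complex I per length was Ndufb2 at 5.38 CPM per kilobase, with a deposited length of 5628 bases. Its 30.3 CPM lay above the 9.52 CPM of Ndufb4.

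**Figure D1:**
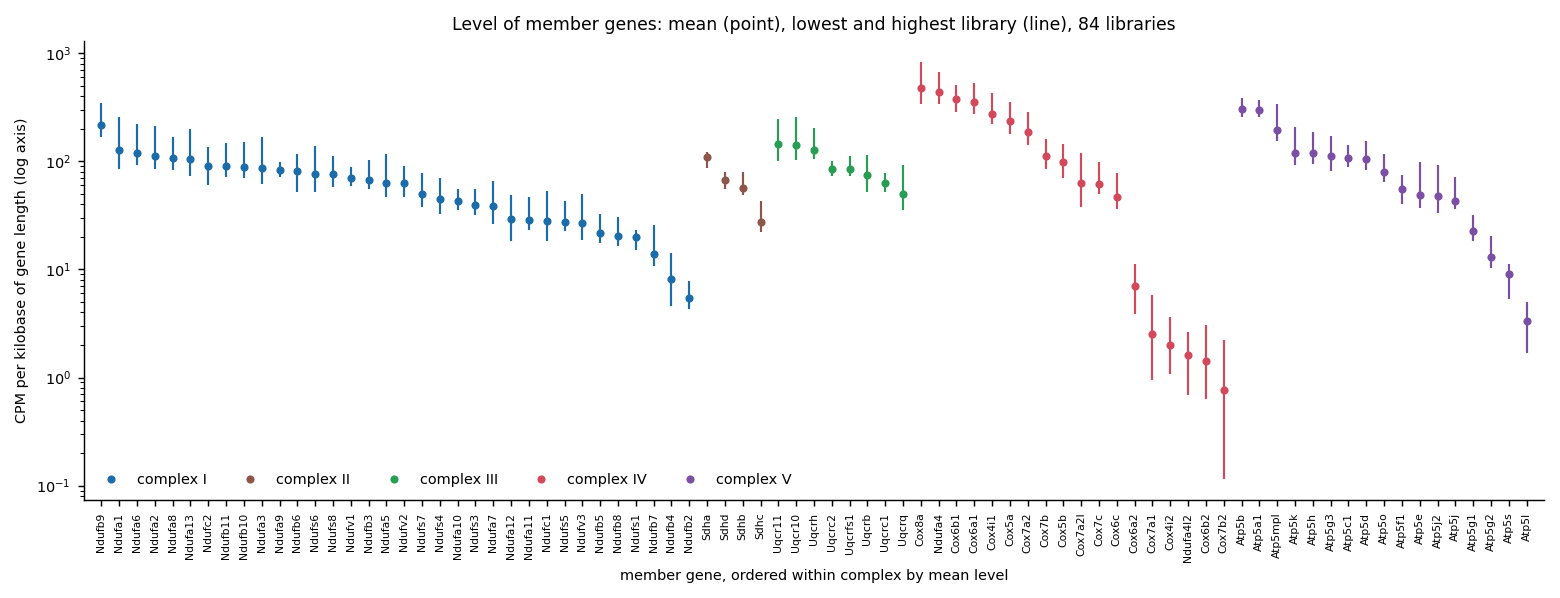
Level of 81 members in CPM per kilobase of gene length (log axis), ordered within complex; points are means over 84 libraries and lines run from the lowest to the highest library. Cox8a is highest at 480 CPM per kilobase and the 6 tissue forms of complex IV lie between 0.772 and 7.01.

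Subunits of complex IV exist in forms that different tissues use, and the striatal libraries held mostly the general forms. Cox6a2, the heart and skeletal muscle form also known from parvalbumin interneurons, made up 1.93 ± 0.37% of Cox6a1 and Cox6a2 together on the per-length scale (SD, n = 84). Cox7a1, the other muscle form, made up 1.33 ± 0.47% beside Cox7a2. Cox4i2, known from lung and vascular mural cells, made up 0.725 ± 0.174% beside Cox4i1. The testis forms Cox6b2 and Cox7b2 made up 0.379 ± 0.108% and 0.687 ± 0.359%, and the hypoxia-inducible Ndufa4l2 made up 0.373 ± 0.105% beside Ndufa4. The 6 forms together ranged from 0.772 to 7.01 CPM per kilobase, and the other 12 members of complex IV from 46.4 to 480 CPM per kilobase.

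In complex V, Atp5g1, Atp5g2 and Atp5g3 encode the same mature c subunit of the membrane rotor. Atp5g3 was the most abundant at 111 CPM per kilobase, Atp5g1 stood at 22.5 and Atp5g2 at 12.95. Atp5l, subunit g of the membrane part, was the lowest member of complex V at 1.70 CPM, or 3.33 CPM per kilobase. Of its 100-base transcript windows, the length of a read, 69.0% were identical to a window of another gene's transcript, more than for any other member. Its level is therefore uncertain. Of the 82 members 52 shared no such window, and beside Atp5l the largest shares were 34.7% for Atp5g2 and 33.4% for Ndufb4.

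High and Low Drinker animals were compared with edgeR's quasi-likelihood test and Benjamini-Hochberg adjustment over all 17071 genes at a threshold of 0.05. Complex I and complex IV held the members that passed. In High Drinker animals 5 of 82 members were lower (6.10%) and 0 were higher, against 2.08% of all tested genes lower and 1.86% higher (3.94% in either direction). Those described here are Ndufa8, Ndufc1 and Ndufa12 of complex I and Cox5a of complex IV. At an unadjusted p under 0.05, 36 members were lower and 2 higher, Ndufs1 and Cox7b2, where 9.5% and 8.53% of all genes were. By DESeq2 7 members were lower (all genes 2.72%), and by limma-voom 4, for which the share of all genes was not counted. By each of these methods 0 were higher. With 5 surrogate variables, 21 members were lower (all genes 7.36%) and Ndufs1 was higher. Reads came from tissue, so fewer cells of a type and less RNA per cell cannot be told apart.

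Cox5a, a matrix-side subunit of cytochrome c oxidase (ENSMUSG00000000088, chromosome 9, 57521232 to 57532424, mm10), whose promoter is printed above, had 124, 149 and 189 CPM as lowest, median and highest value in High Drinker animals. In Low Drinker animals these were 139, 167 and 245 CPM. The groups overlapped, and 37 of 44 High Drinker libraries lay below the Low Drinker median. The log2 fold change was -0.20 ± 0.04 (SE, edgeR adjusted p = 0.000408). Of its transcript windows, 13.6% were shared with another gene's transcript.

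Ndufa8, an accessory subunit on the intermembrane side of complex I (ENSMUSG00000026895, chromosome 2, 36036326 to 36049406), ran from 71.9 to 111 CPM with a median of 87.2 in High Drinker animals. In Low Drinker animals it ran from 76.3 to 145 CPM with a median of 94.4. The ranges overlapped, with 34 of 44 High Drinker libraries below the Low Drinker median and the highest value in a Low Drinker animal. The log2 fold change was -0.15 ± 0.04 (SE, edgeR adjusted p = 0.0112).

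Ndufc1, a small accessory subunit of the membrane arm (ENSMUSG00000037152, chromosome 3, 51404677 to 51408988), ran from 27.2 to 53.0 CPM with a median of 38.3 in High Drinker animals and from 30.3 to 80.0 CPM with a median of 41.6 in Low Drinker animals. Ndufa12, an accessory subunit of the matrix arm (ENSMUSG00000020022, chromosome 10, 94198955 to 94221443), ran from 24.2 to 53.2 CPM with a median of 36.8 and from 29.7 to 65.3 CPM with a median of 40.6. For both genes the ranges overlapped widely, and 29 and 34 of 44 High Drinker libraries lay below the Low Drinker median. Log2 fold changes were -0.17 ± 0.05 for Ndufc1 (edgeR adjusted p = 0.0425) and -0.18 ± 0.06 for Ndufa12 (edgeR adjusted p = 0.0431).

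**Figure D2:**
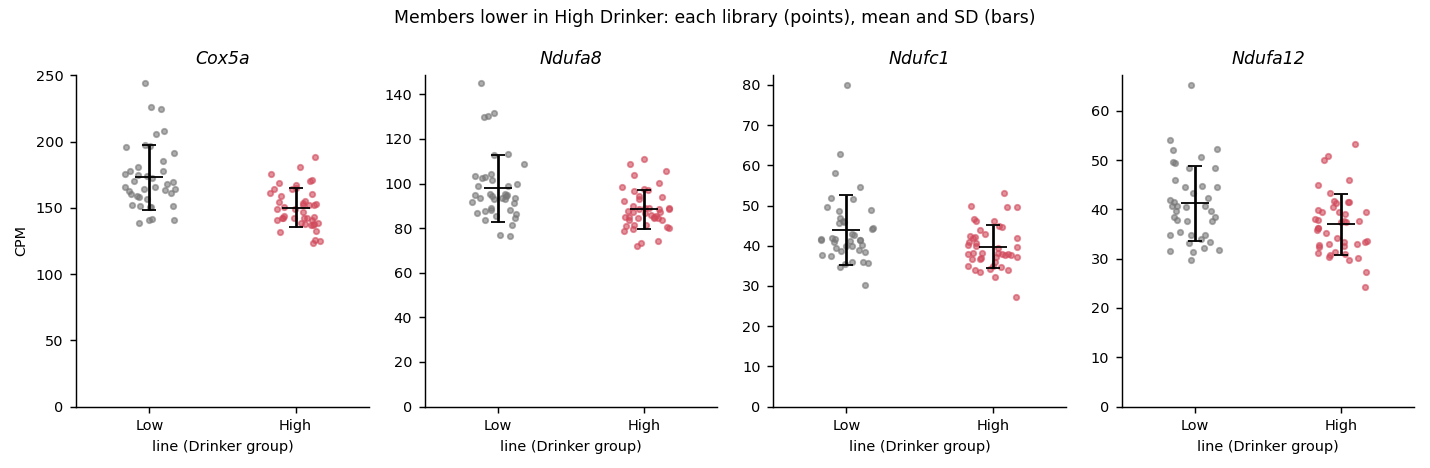
CPM of Cox5a, Ndufa8, Ndufc1 and Ndufa12 in Low and High Drinker animals; each point is 1 library and bars give mean and SD. Medians of Cox5a are 167 CPM in Low and 149 CPM in High Drinker animals, and the groups overlap for each gene.

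These calls differed in how well they held. Over 17 other settings of the fit, Cox5a was called in 15 and was lost in set 2 alone and in females alone. Ndufa8 was called in 13, Ndufa12 in 9 and Ndufc1 in 7. Without the 5 libraries that stood apart the calls of Ndufc1 (log2 fold change -0.14, edgeR adjusted p = 0.126) and Ndufa12 (-0.16, edgeR adjusted p = 0.105) were lost, leaving 3 members where 1.19% of all genes were lower. Without the low-count filter both calls were lost at folds of similar size, -0.17 for Ndufc1 (edgeR adjusted p = 0.0605) and -0.19 for Ndufa12 (edgeR adjusted p = 0.0629). After removal of the length trend described below, where both were also lost, the folds were -0.12 and -0.14 on the log2 scale. In set 2 alone Cox5a had -0.19 (edgeR adjusted p = 0.516), close to its value over all libraries. In set 1 alone 2 members passed, Cox5a among them (all genes lower, 0.221%), and in set 2 alone 0 passed (0.186%). Whether the line difference itself differed between sets 1 and 2 was tested with edgeR, without set 3, after the data were seen. This line by set interaction called 0 members (all genes 0.00587%), with 0 members at an unadjusted p under 0.05 (all genes 2.2%).

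Members just beyond the threshold belonged to several complexes. In complex II the membrane anchor Sdhc stood at -0.12 on the log2 scale (edgeR adjusted p = 0.0533), with 86.3 ± 9.06 CPM in High and 92.6 ± 12.05 CPM in Low Drinker animals. The next were Ndufb5 at -0.11 (edgeR adjusted p = 0.0644) and Atp5d, the delta subunit of the ATP synthase, at -0.13 (edgeR adjusted p = 0.0682). In complex V Atp5j2, subunit f, had the largest value at -0.17 (edgeR adjusted p = 0.0876), and in complex III it was Uqcrq at -0.15 (edgeR adjusted p = 0.0921). In complex IV the largest value belonged to Cox7b2 at 0.34 ± 0.16 (edgeR adjusted p = 0.230), at 0.478 ± 0.238 CPM against 0.353 ± 0.190 CPM. Cox6b2 had -0.23 ± 0.09 (edgeR adjusted p = 0.157).

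The members were compared as a group by counts and medians, without a test. A negative sign was seen in 72 of 82 members, where 49.4% of all genes were negative, and the median log2 fold change was -0.08, where that of all genes was 0.001. By complex the medians were -0.09 for complex I (32 of 35 negative), -0.04 for complex II (3 of 4), -0.06 for complex III (6 of 8), -0.09 for complex IV (16 of 18) and -0.07 for complex V (15 of 17). Within complex I the 7 core subunits, which carry out electron transfer, had a median of -0.04 and the 28 accessory subunits -0.10. The core genes were longer, with a median length of 2178 against 1193.5 bases, and the part of length in this contrast was not tested. The 10 positive members included Ndufs1, the large iron-sulfur subunit of complex I, at 164 ± 12.02 CPM in High and 156 ± 13.7 CPM in Low Drinker animals (log2 fold change 0.07, edgeR adjusted p = 0.128). Sdha (0.02), Uqcrc2 (0.002), Atp5a1 (0.02) and Atp5b (0.03), large subunits of their complexes, also had values at or just above 0.

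**Figure D3:**
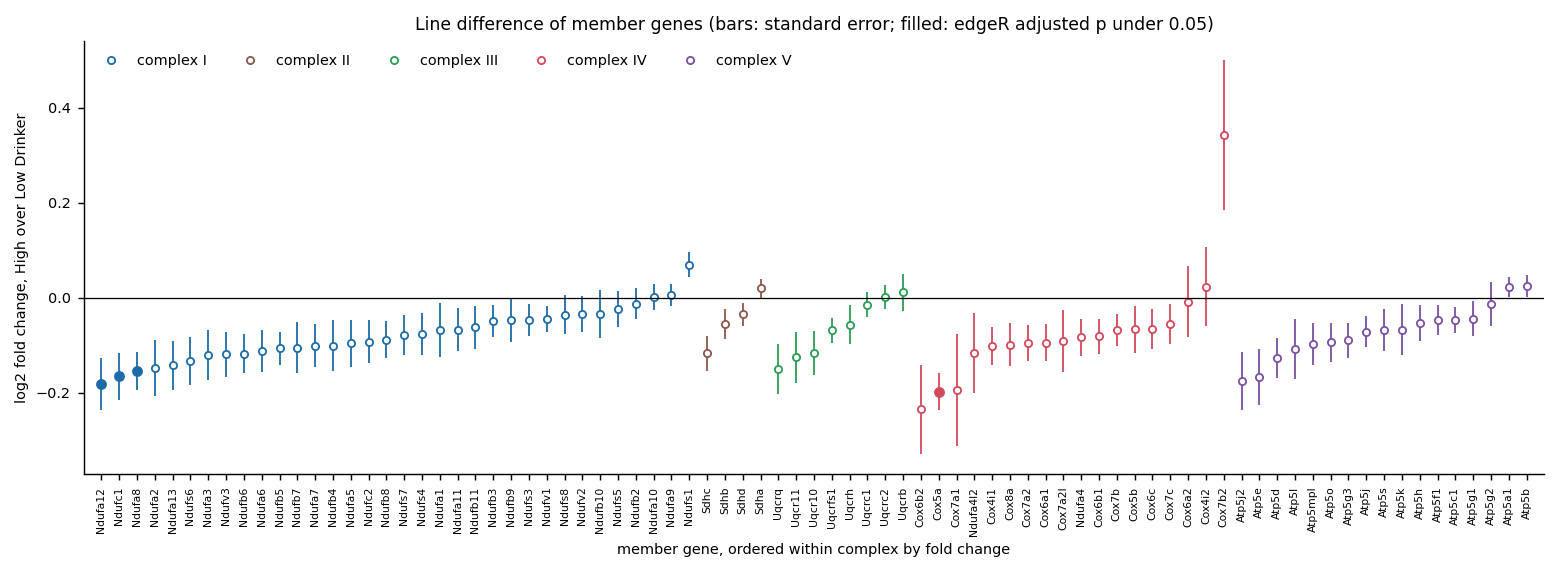
Log2 fold change of High over Low Drinker for 81 members, ordered within complex; bars are standard errors and filled points passed an edgeR adjusted p of 0.05. Of 81 points 71 lie below 0, and the 4 filled points belong to complexes I and IV.

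The median differed between the sets: it was -0.11 in set 1 alone and -0.03 in set 2 alone, with 77 and 61 members negative. It was -0.07 in females and -0.08 in males alone. Without the 5 libraries that stood apart it was -0.06, with 69 members negative.

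Earlier results of these data showed regions of chromosome 1 (150 to 180 Mb), chromosome 4 (130 to 160 Mb) and chromosome 9 (40 to 60 Mb) to be rich in line differences, and 6 members lie there. Of the 848 tested genes in these regions 8.49% were lower in High Drinker animals. All 6 members had a negative sign. Among them were Cox5a, which passed, Sdhc on chromosome 1 (171127165 to 171150603), Sdhb on chromosome 4 (-0.05), and Sdhd (-0.03) and Atp5l (-0.11) on chromosome 9. So 3 of the 4 genes of complex II lie in these regions. The 76 members elsewhere had a median of -0.07, and Ndufa8, Ndufc1 and Ndufa12 were among them.

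Most members are shorter than the median tested gene, and the line difference was compared by gene length, with no test. The median gene length was 1304.5 bases for the members and 3539 bases for all tested genes. Among genes of up to 1000 bases the median log2 fold change was -0.09 for 30 members and -0.06 for all such genes. From 1000 to 2000 bases it was -0.08 for 28 members and -0.04 for all genes, and from 2000 to 4000 bases -0.07 for 16 members and -0.01 for all genes. Above 4000 bases it was -0.03 for 8 members and 0.02 for all genes. With each library's trend on gene length removed, the median of the members was -0.04 with 64 of 82 negative, and 3 were lower, Cox5a and Ndufa8 among them (all genes 1.88%). The part of gene length in the line difference of single members was not tested beyond this fit.

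Sex and variability were tested in the same libraries. Between the sexes 0 members differed by edgeR, where 0.0996% of all genes did, and 3 members had an unadjusted p under 0.05 (all genes 4.03%): Ndufs1, Sdhd and Uqcrc2, each higher in males, by 0.06, 0.05 and 0.06 on the log2 scale. For the line by sex interaction 0 members and 0 genes passed by edgeR, with 0 members at an unadjusted p under 0.05 (all genes 5.65%). In the limma test of variability 0 members passed (all genes 0.0117%), and 4 had an unadjusted p under 0.05 (all genes 4.07%). Spread around the median was smaller in High Drinker animals for 73 of 82 members, and for 62.5% of all genes. Since members vary together across libraries, as described below, this count does not stand for separate observations.

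The members varied together across the 84 libraries. Pearson's r was computed between pairs on log2 CPM after line, sex and set were removed, as a description with no p, since members share libraries. Over 3321 pairs the median r was 0.63, and 64.2% of pairs were above 0.5. The median over pairs of all tested genes was -0.003 with 5.72% above 0.5, and over genes of at least 10 CPM it was 0.003 with 10.01%. The first component held 62.3% of the members' variance and the second 8.98%. The highest pair joined Ndufs6 of complex I and Uqcrq of complex III (0.96), and the lowest Atp5g2 and Atp5s (-0.65).

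Shared variation crossed the complexes. The median r was 0.66 within complexes and 0.61 between them. Within complex I it was 0.70, within complex III 0.67, within complex V 0.59, within complex IV 0.45 and within complex II 0.44. Means of complexes I, III and V followed each other closely, with r of 0.98 for each of the 3 pairs, while complexes II and IV had 0.75. In complex IV the 12 general members had a median pairwise r of 0.76 and the 6 tissue forms 0.21, at levels near a few CPM or below, where counting error takes a larger part. The r between each member and the mean of all others had a median of 0.83, and 70 of 82 members were above 0.5.

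By complex, the member closest to the rest was Atp5mpl, a small membrane subunit of the ATP synthase, in complex V (0.95), Cox4i1 in complex IV (0.95), the ubiquinone-binding Uqcrq in complex III (0.95) and Ndufs6, a zinc-binding subunit, in complex I (0.94). In complex II it was the iron-sulfur subunit Sdhb (0.83), at about the median of all members. Atp5mpl, for instance, had a lowest, median and highest level of 56.5, 67.1 and 85.9 CPM in High Drinker and 56.7, 68.8 and 123 CPM in Low Drinker animals, so its highest values were in Low Drinker libraries. The lowest r belonged to Ndufs1 (-0.05), Atp5s, not itself a subunit (0.05), Sdha (0.07), Uqcrc2, a core protein of complex III (0.11), and Cox7b2 (0.19). Ndufs1, Sdha and Uqcrc2 were well expressed, at 160 ± 13.4, 423 ± 24.3 and 215 ± 17.1 CPM (SD, n = 84). They followed one another, with r of 0.77 for Ndufs1 and Sdha, 0.53 for Ndufs1 and Uqcrc2 and 0.51 for Sdha and Uqcrc2. Of Uqcrc2's transcript windows 21.5% were shared with another gene.

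**Figure D4:**
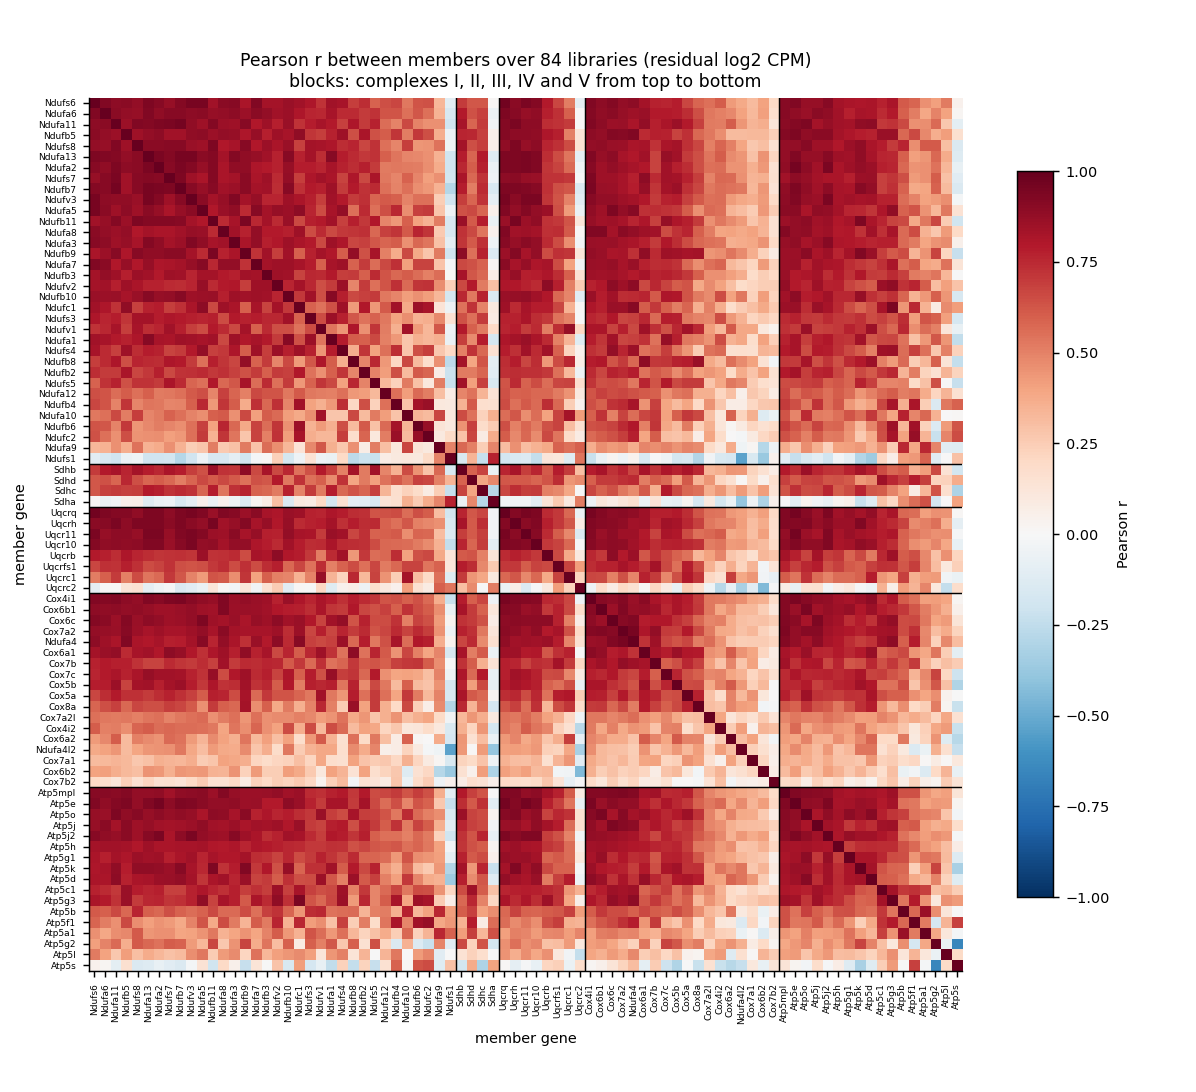
Pearson r between all pairs of 81 members over 84 libraries, on log2 CPM with line, sex and set removed; genes are ordered within complexes I to V by their r with the other members. Most of the map is above 0.5, and pale lines mark Ndufs1, Sdha, Uqcrc2, Atp5s and the tissue forms of complex IV.

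Levels of the members as a whole differed between libraries. The mean log2 CPM of the 82 members ran from 5.88 to 6.37 with a median of 6.09 in High Drinker animals and from 5.92 to 6.71 with a median of 6.14 in Low Drinker animals, so the ranges overlapped and the highest libraries were Low Drinker. Members took 1.08 ± 0.10% of all counts in High (SD, n = 44) and 1.13 ± 0.14% in Low Drinker animals (SD, n = 40). The 5 libraries that stood apart ran from 6.14 to 6.71 with a mean of 6.33, and the other 79 had a mean of 6.14. Low Drinker 8 was the highest of the 5, and without it their mean was 6.24.

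This mean moved with gene length. For each library the slope of log2 CPM on log2 gene length over all tested genes, relative to the average library, was taken as a measure of how much long genes were favoured. With line, sex and set removed from both, its r with the member mean was -0.88 (Spearman's rho -0.84, n = 84). It was -0.85 without the 2 libraries with the most distant slopes, -0.89 in set 1 and -0.88 in set 2. The members are mostly short and are among the genes that gave the slope. This r was not computed for other short genes, so it is not shown to be particular to the members. The slope was 0.010 ± 0.034 in High and -0.011 ± 0.046 in Low Drinker animals. With the length trend removed the median r between members was 0.37 and that over all genes -0.003. Ndufs1, the longest member at 8086 bases, then had an r of 0.65 with the other members, while Sdha had 0.32 and Uqcrc2 0.04.

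**Figure D5:**
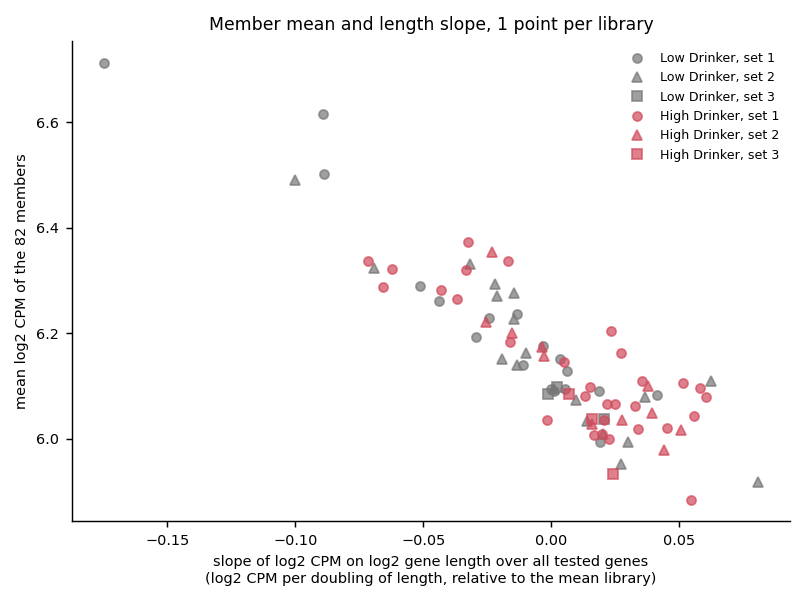
Mean log2 CPM of the 82 members against the slope of log2 CPM on log2 gene length, 1 point per library, coloured by line with symbols for the numbering sets. Libraries with a lower slope have a higher member mean, and the 4 highest member means are Low Drinker libraries. The r of -0.88 (n = 84) is for values with line, sex and set removed, while the points show values without that removal.

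Other measures moved with the member mean less. Again with line, sex and set removed, its r was 0.28 with the mean of medium spiny neuron markers and -0.39 with cortical glutamatergic markers. It was -0.39 with astrocyte markers and -0.43 with fast-spiking interneuron markers. It was -0.08 with the log2 library total. With 3 marker means regressed out, the median r between members was 0.65. The part of cell composition in the line difference was examined only by adding 3 marker means to the model, where 10 members were lower (all genes 3.33%).

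Shared variation was seen in both lines, with a median r of 0.57 over the 44 High Drinker and 0.69 over the 40 Low Drinker libraries. Without the 5 libraries that stood apart it was 0.57 and 0.71. The difference between the lines was not tested.

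Other genes of the pathway were followed from lists of known function. Of 8 tested subunits outside the symbol rule and electron carriers, 0 passed in the line test and 6 were negative, among them Cyc1, the cytochrome of complex III (-0.03), and Ndufab1, the acyl carrier protein (-0.11, edgeR adjusted p = 0.0734). Of 49 assembly factors, 2 fell, where 2.08% of all genes did: Uqcc3, for complex III, from 17.7 ± 2.97 to 15.8 ± 2.10 CPM (-0.18 on the log2 scale, edgeR adjusted p = 0.0150), and Sdhaf4, for complex II, from 15.6 ± 2.0 to 14.4 ± 1.85 CPM (-0.13, edgeR adjusted p = 0.0316). Where 1.86% of all genes rose, 1 of 19 genes of the citric acid cycle and pyruvate dehydrogenase rose, Dlat (0.10, edgeR adjusted p = 0.0209). Among 17 glycolysis genes 1 rose, Eno1 on chromosome 4 (0.45, edgeR adjusted p = 1.54e-06), while 14 were negative and the median was -0.03. Sequence shared with other genes was examined for the members only, and so not for Eno1. Of 15 regulators and 18 import and membrane genes 0 passed, with Ppargc1a, the coactivator of mitochondrial genes, at 46.96 ± 9.97 CPM in High and 46.2 ± 10.8 CPM in Low Drinker animals.

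Against the member mean, with line, sex and set removed, the median r was 0.72 for the subunits outside the rule. Assembly factors had a median r of 0.51 and import genes 0.50. It was 0.26 for glycolysis, 0.18 for the citric acid cycle and -0.15 for the regulators, while the 16989 genes that are not members had a median of -0.02. Ppargc1a had an r of -0.61 and Esrra, a nuclear receptor that acts with it, 0.61.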

How the data were processed

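Raw read counts per gene, deposited by the authors in the layout of featureCounts, were used for all 84 libraries. Per the labels' protocols, Trizol RNA was turned into amplified cDNA (Ovation RNA-Seq), and single-end reads of 100 bp were taken. Per the submitters' processing notes, STAR, featureCounts and edgeR were used with build mm10. For versions, strand setting and multi-mapped reads, the sources used here give nothing, and 4 members overlap another gene's exons on the same strand and 20 on the opposite strand. Symbols came from GENCODE for 42462 identifiers, coordinates from the deposited table, and 0 rows named no gene.

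Line, sex and interaction were tested with edgeR 4.0.16 in R 4.3.3 (TMM, filterByExpr, quasi-likelihood F-test; model of line, sex and numbering set). For variability, limma 3.58.1 was fitted to each library's absolute deviation from the median log2 CPM of its line and sex (prior count 2). Alternatives used DESeq2 1.42.0, sva 3.50.0 (5 surrogate variables) and, for length, a per-library lowess of log2 CPM on log2 gene length as an offset. On simulated counts of 17071 genes the line test found 30% of genes changed by a fold of 1.1, 72% at 1.25, 90% at 1.5 and 98% at 2, and 9 of its 154 calls were false. The sex test found 30%, 82%, 96% and 98%, the interaction test 4%, 42%, 84% and 96%, and the variability test 76.5% of genes with 2 times the spread. Counting error weighs most for members near 1 CPM. Summaries and plots were made in Python 3.11.15 with numpy 2.4.6, pandas 2.3.3 and matplotlib 3.10.9.

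The members, the other gene lists, the chromosome regions and the 5 libraries that stood apart were chosen with earlier results of these data known. Genes named are all members with an adjusted p under 0.05, the 6 in the regions, tissue forms and paralogues, and in each complex those with the largest fold change, highest level per length, and highest and lowest r. Others named, such as Ndufb5, Atp5d, Cox6b2, Atp5b and the second-ranked genes, were chosen after their values were seen. Values of 1 member are not reported here and it is left out of the plots of single members, while counts and medians over the members include it.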

Additional observations from a re-analysis of the deposited data

How the results depend on the processing

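The number of members lower in High Drinker animals, reported as 5, was within 1.5 times that with other normalizations, limma-voom, DESeq2, no set term, without set 3 and without High Drinker 11. It was 3 with no filter on low counts, 3 without the 5 libraries that stood apart, 3 with the length trend removed, 2 in set 1 alone, 0 in set 2 alone, 0 in females alone and 2 in males alone. It was 10 with 3 marker means and 21 with 5 surrogate variables, where 1 member, Ndufs1, was also higher and 7.36% of all genes were lower. At an adjusted p under 0.01 it was 2 and under 0.1 it was 12, thresholds at which the share of all genes was not counted. Nor was that share counted for the other normalizations, limma-voom, no filter, no set term, without set 3, without High Drinker 11 or the single sexes. The median log2 fold change was -0.0288 in set 2 alone and -0.0382 with the length trend removed, where Sdhd changed sign to 0.00388. The median r between members was 0.37 with the length trend removed. The cause was not tested. Single sets and sexes hold fewer libraries, and set 1 alone had a median of -0.112. No member passed for sex, interaction or variability in any setting run. No paired analysis was possible because the labels give no replicate numbers shared between the groups. Leaving out single animals in turn was not run, with 40 or more animals per group. The lines were unequally spread over the numbering sets, and the smallest set, with 6 libraries, was not fitted alone.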
